A study of Mus musculus with 9 samples.

Results

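The genes described here encode the sensors, adaptor, proteases and pore protein of the mouse inflammasome. They are the tandem paralogs Nlrp1a and Nlrp1b, the sensors Nlrp3, Nlrc4 and Aim2, the adaptor Pycard, the caspase genes Casp1 and Casp4, and the gasdermin gene Gsdmd. The 9 genes were taken by symbol from a deposited table of 43629 genes, and all 9 were found and passed the filter on low counts. The list was drawn up with earlier results of these data known. The Nlrp1 pair had been chosen by measured values, their normalised reads in mDE against WT, so for this pair every comparison that uses the mDE libraries is given as a description with no test. The other 7 genes joined the list through their known roles.

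RNA came from bone marrow cells of mice labelled C57BL/6, selected with beads for c-Kit (CD117), the receptor for stem cell factor. Mice of all 3 genotypes, WT included, had been given pIpC, a double-stranded RNA mimic and interferon inducer. In Cbfb+/MYH11 (here MYH11), 1 Cbfb allele makes the inv(16) leukaemia fusion CBFβ-SMMHC, in which the transcription factor subunit CBFβ is joined to smooth muscle myosin. In Cbfb+/mDE (here mDE), the C-terminal multimerization domain of that fusion is altered, and WT animals were the controls. Each genotype had 3 libraries, and the labels name neither a Cre driver nor the age or number of animals per library. P-values therefore measure only the spread between these libraries, which may be technical.

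An inflammasome is a cytosolic complex that turns a danger signal into inflammation and lytic cell death. A sensor protein recruits the adaptor ASC, encoded by Pycard, or binds caspase-1 directly through its own CARD domain. Active caspase-1 matures interleukin-1β and interleukin-18 and cleaves gasdermin D, whose fragments form pores in the plasma membrane. In mice, Nlrp1b differs in sequence between inbred strains, and the NLRP1B protein of some strains responds to anthrax lethal factor. The response of the allele carried here was not tested. NLRP1A activation is known to deplete haematopoietic progenitors.

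Nlrp1a and Nlrp1b had opposite signs in mDE against WT, so the sequences that tell them apart are shown first. In the GENCODE M21 transcripts of GRCm38, the longest coding sequences were 85.9% identical over 3531 aligned bases. The longest stretch with no difference was 102 bases, coding bases 2872 to 2973 of Nlrp1a and 2554 to 2655 of Nlrp1b.
Nlrp1a and Nlrp1b, shared stretch: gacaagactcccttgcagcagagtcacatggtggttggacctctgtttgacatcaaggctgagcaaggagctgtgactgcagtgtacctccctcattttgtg
A read that falls wholly inside this stretch belongs to either gene. The window of 120 bases in which they differed most held 45 differences and starts at coding base 65 of both genes. Capitals mark the differing bases.
Nlrp1a, coding bases 65 to 184: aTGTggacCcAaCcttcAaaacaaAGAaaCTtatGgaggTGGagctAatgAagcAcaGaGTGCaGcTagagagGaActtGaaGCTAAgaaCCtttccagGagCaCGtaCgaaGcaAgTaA
Nlrp1b, coding bases 65 to 184: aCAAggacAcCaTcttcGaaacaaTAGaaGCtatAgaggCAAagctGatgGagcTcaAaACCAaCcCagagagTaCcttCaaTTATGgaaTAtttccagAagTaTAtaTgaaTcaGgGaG
Of all distinct 50-base windows in the transcripts, 1.79% of those of Nlrp1a also occurred in Nlrp1b and 1.21% of those of Nlrp1b in Nlrp1a. At 75 bases the shares were 0.650% and 0.445%, and at 100 bases 0.0689% and 0.0476%. The read length is not given in the sources used here, and the windows count the reference sequence only.

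The starts of the genes were alike as well. RefSeq promoters (250 bases before to 50 after the start, GRCm38.p6) were found for 8 of the 9 genes, with 11 entries, and Gsdmd had none. The promoter of Nlrp1a and that of the upstream start site of Nlrp1b were 87.4% identical over 286 aligned bases. Both are shown on the minus strand, with capitals marking a Runx core motif, TGTGGT, the sequence bound by the partners of CBFβ.
Nlrp1a, chr11:71144655-71144954: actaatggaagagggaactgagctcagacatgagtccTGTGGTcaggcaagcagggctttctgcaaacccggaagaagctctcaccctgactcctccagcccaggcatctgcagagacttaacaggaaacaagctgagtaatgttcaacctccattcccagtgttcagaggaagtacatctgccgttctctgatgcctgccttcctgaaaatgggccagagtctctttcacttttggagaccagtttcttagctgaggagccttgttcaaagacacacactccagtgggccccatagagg
Nlrp1b, chr11:71230684-71230983: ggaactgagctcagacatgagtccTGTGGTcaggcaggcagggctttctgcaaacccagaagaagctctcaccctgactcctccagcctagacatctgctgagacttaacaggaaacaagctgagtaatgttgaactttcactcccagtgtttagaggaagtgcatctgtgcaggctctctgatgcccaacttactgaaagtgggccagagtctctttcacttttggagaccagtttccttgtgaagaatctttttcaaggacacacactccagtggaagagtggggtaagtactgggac
The motif stood in the same alignment columns of both, 213 bases before the Nlrp1a start and 226 before the Nlrp1b start. Searched on both strands, TGTGGT occurred in 3 of the 11 entries (those 2 and Nlrc4), and in 16.8% of 32851 mouse promoters of the same length. The downstream start site of Nlrp1b held none. The gamma-activated site TTCNNNGAA and an interferon-stimulated response element (GAAA, any 2 bases, GAAA) matched 0 of the 11 entries, against 8.30% and 3.44% of all promoters. A match is a run of letters and not evidence of binding.

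The libraries held 39300366 to 50073097 reads. Values below are deposited normalised reads, in the order of replicates 1, 2 and 3, and group means carry the SD of the 3 libraries of a genotype. Myh11 read 196 ± 21.3 in MYH11, 37.9 ± 8.12 in mDE and 7.02 ± 2.06 in WT (n = 3 each), highest in the libraries labelled MYH11. Kit itself stood at 3538 ± 321 in MYH11, 7256 ± 329 in mDE and 7504 ± 253 in WT (n = 3 each). The progenitor marker list that holds Kit took 0.107% to 0.126% of reads in MYH11, 0.0856% to 0.0917% in mDE and 0.0823% to 0.0913% in WT. Of its 10 genes, 5 were called higher and 5 lower in MYH11 than in WT, and 1 higher in mDE than in WT. Marker genes of late neutrophils took 0.804% to 2.47% of reads in MYH11, 12.5% to 15.5% in mDE and 11.02% to 13.1% in WT, and all 15 of them were called lower in MYH11 than in WT. Monocyte and macrophage markers took 0.489% to 0.548% in MYH11, 0.138% to 0.160% in mDE and 0.115% to 0.120% in WT, with 9 of 12 higher and 1 lower in MYH11 than in WT and 3 higher in mDE than in WT. Dendritic cell markers took 0.0329% to 0.0373% in MYH11, 0.0203% to 0.0224% in mDE and 0.0139% to 0.0182% in WT, with 8 of 10 higher and 1 lower in MYH11 and 2 higher in mDE than in WT. Mast cell and basophil markers took 0.329% to 0.509% in MYH11, 0.0584% to 0.0697% in mDE and 0.0632% to 0.0645% in WT, with 8 of 11 tested higher and 3 lower in MYH11. Of all genes tested, 32% were called higher and 27.8% lower in MYH11 than in WT. In mDE against WT, 0.821% of all genes were called higher and 0.42% lower. Erythroid markers took 0.278% to 0.403% in MYH11, 0.102% to 0.185% in mDE and 0.139% to 0.168% in WT. In the same order, megakaryocyte markers took 0.0140% to 0.0237%, 0.00564% to 0.0102% and 0.00606% to 0.00904%. T and NK cell markers took 0.00639% to 0.0124%, 0.0145% to 0.0166% and 0.0205% to 0.0220%. B cell markers took 0.0133% to 0.0209%, 0.0118% to 0.0188% and 0.0145% to 0.0174%. Each of these 4 lists held genes called higher and lower in MYH11 than in WT. No marker of the 9 lists was at 0 in all libraries of a genotype. The part of these shifts in the results that follow was not tested, and in bulk RNA fewer cells of a type and less RNA per cell cannot be told apart. The mDE libraries differed among themselves at Ifi202b, a relative of Aim2 that read 0, 328 and 289 in mDE and 0 in all MYH11 and WT libraries, and Nlrc4 was lowest in mDE replicate 1. Whether all mDE animals shared the labelled strain background was not tested, and this bears on the mDE values below. Without mDE replicate 1 the log2 fold change of Nlrp1b in mDE against WT was 3.91 (3.89 with it). That of Nlrp1a was -0.49 (-0.59 with it). This fit keeps mDE replicates 2 and 3, the libraries with Ifi202b reads, so it cannot decide the question of background. Its values also belong to the contrast by which the pair was chosen.

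With the unaltered fusion allele, most sensors, the adaptor and caspase-1 were higher and the pore gene was lower. In MYH11 against WT, 7 of the 9 genes passed a limma adjusted p under 0.05, 6 higher and 1 lower, where 59.8% of all 15948 genes tested passed, 32% higher and 27.8% lower. Without the Nlrp1 pair the count was 5 of 7, 4 higher and 1 lower. The median log2 fold change was 0.63 over the 9 genes, 0.44 without the pair and 0.02 over all genes tested. The libraries of the groups did not overlap for 8 of the 9 genes, 7 higher and 1 lower. Of the 7 genes without the pair, 5 were higher and 1 lower with no overlap. The groups did not overlap for 68.7% of all genes, 36.4% higher and 32.3% lower. The share called higher lay above that of all genes and the share called lower lay below it. With 9 genes, listed with earlier results known, these shares are no result about the genes as a group.

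**Figure D1:**
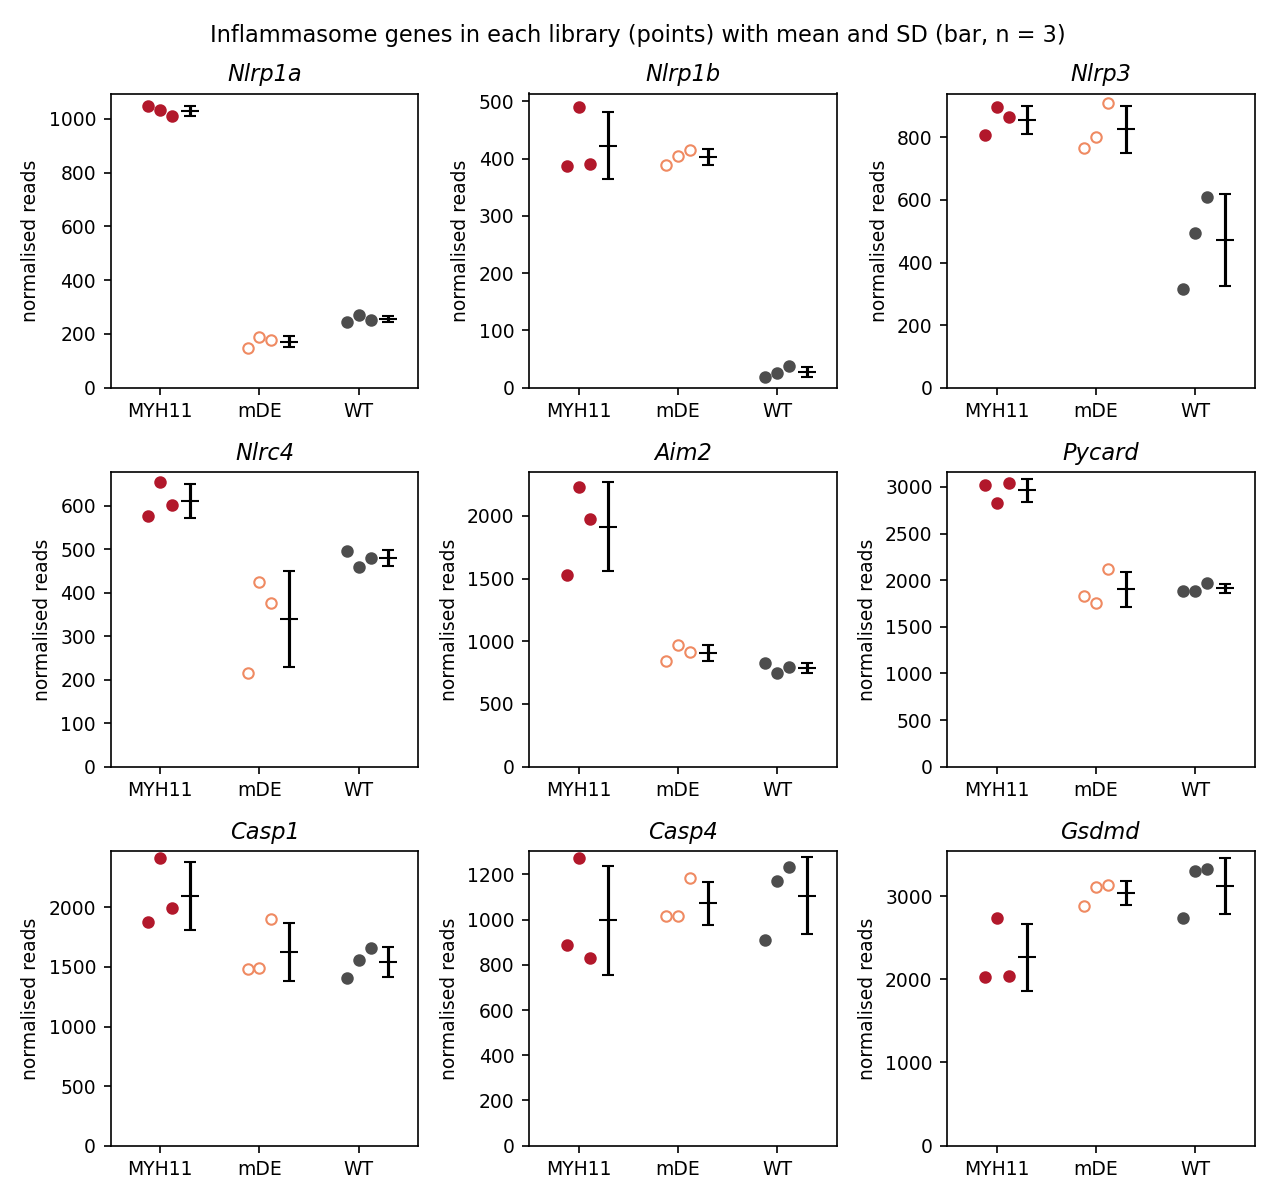
Normalised reads (y axis, from 0) of the 9 inflammasome genes in each library of the MYH11, mDE and WT genotypes (points), with the mean and SD of 3 libraries as a bar. Nlrp1a is high in MYH11 alone, while Nlrp1b is at 387 to 490.1 in both fusion genotypes and at 19.3 to 37.6 in WT.

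Nlrp1a (ENSMUSG00000069830, chromosome 11, 71092236 to 71144704 on the minus strand) encodes a sensor with a CARD domain. It read 1047, 1033 and 1009 in MYH11, 148, 188 and 176 in mDE, and 246, 270 and 253 in WT. The MYH11 libraries stood far above all others, and the mDE libraries lay below every WT library. Nlrp1a was 4.02-fold higher in MYH11 than in WT (log2 fold change 2.0, SE 0.10, limma adjusted p = 7.13e-07). Its mean in mDE, 171 ± 20.7, was 1.5-fold lower than the WT mean of 256 ± 12.2 (n = 3 each, no test).

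Nlrp1b (ENSMUSG00000070390, chromosome 11, 71153102 to 71230733 on the minus strand), the neighbouring paralog, showed another pattern. It read 387, 490.1 and 391 in MYH11, 388, 405 and 415 in mDE, and 19.3, 24.95 and 37.6 in WT. Both fusion genotypes stood far above WT and overlapped each other. Nlrp1b was 15.5-fold higher in MYH11 than in WT (log2 fold change 3.95, SE 0.22, limma adjusted p = 9.76e-07). In mDE it was 14.8-fold above WT, the value that singled it out, and the MYH11 and mDE means, 423 ± 58.5 and 403 ± 13.5 (n = 3 each), differed by a factor of 1.05. The WT libraries held 20 to 32 recovered reads of Nlrp1b each. The same WT libraries entered the choice of the pair, so the MYH11 tests of Nlrp1a, of Nlrp1b and of their sum below are not independent of that choice.

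**Figure D2:**
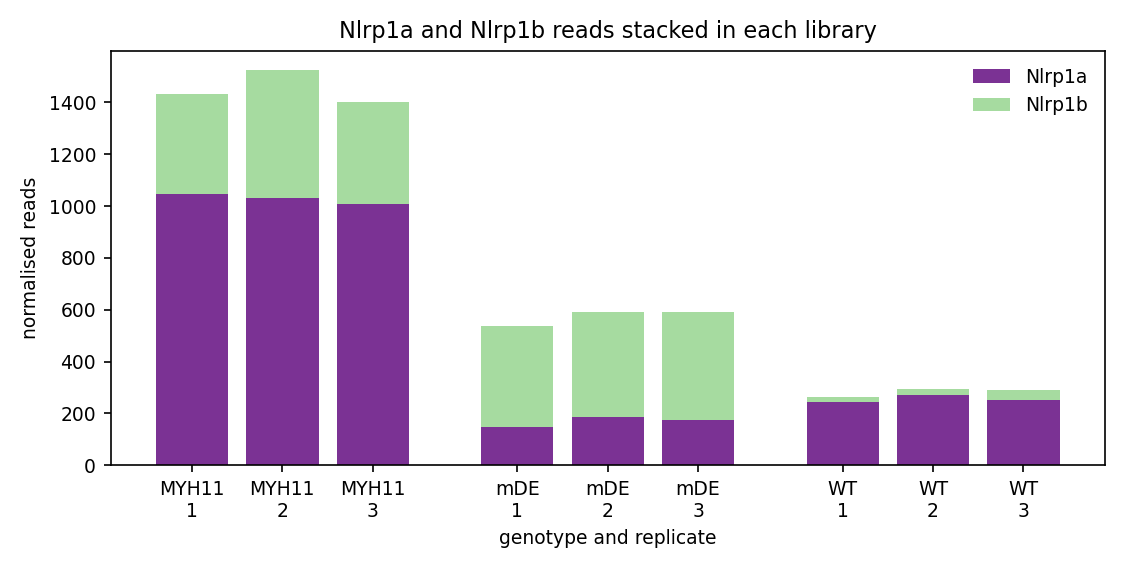
Normalised reads (y axis, from 0) of Nlrp1a and Nlrp1b stacked in each library of MYH11, mDE and WT (x axis, genotype and replicate). The summed height is 1400.1 to 1523 in MYH11, 536 to 593 in mDE and 265 to 295 in WT, and Nlrp1b makes up most of it in mDE only.

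Since reads of paralogs can be divided between them, the pair was also summed. The sum was 1434, 1523 and 1400.1 in MYH11, 536, 593 and 591 in mDE, and 265, 295 and 290.1 in WT. No groups overlapped. The sum was 5.13-fold higher in MYH11 than in WT (exact two-sided permutation p = 0.1, the smallest that 3 against 3 libraries allow), and 2.02-fold higher in mDE than in WT with no test. In mDE against WT, the mean of Nlrp1b was 375 normalised reads higher while that of Nlrp1a fell by 85.5, values that belong to the contrast by which the pair was chosen. Nlrp1b made up 29.0% ± 2.77 of the pair in MYH11, 70.3% ± 2.07 in mDE and 9.57% ± 3.0 in WT (SD, n = 3 each).

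Nlrp3 (chromosome 11, 59541568 to 59566956), the sensor of ion flux and crystals, read 809, 896 and 864 in MYH11, 765, 802 and 911 in mDE, and 316, 494 and 608 in WT. The fusion genotypes overlapped each other and lay above every WT library, whose spread was wide. Nlrp3 was 1.81-fold higher in MYH11 than in WT (log2 fold change 0.91, SE 0.20, limma adjusted p = 0.00356). In mDE the log2 fold change was 0.85 with a 95% interval of 0.40 to 1.30, and it missed the threshold (limma adjusted p = 0.0737). The DESeq2 Wald test on recovered reads called it in mDE (adjusted p = 0.0035). Between MYH11 and mDE the log2 difference was 0.05, with a 95% interval of -0.40 to 0.51 (limma adjusted p = 0.837). Intervals here are per gene and not adjusted for the number of genes.

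Aim2 (chromosome 1, 173350879 to 173466040), whose product binds double-stranded DNA in the cytosol, read 1529, 2232 and 1979 in MYH11, 841, 969.6 and 911 in mDE, and 824, 748 and 795 in WT. MYH11 stood clear of both other genotypes. Aim2 was 2.43-fold higher in MYH11 than in WT (limma adjusted p = 2.74e-05; log2 fold change 1.26, SE 0.13). It was 2.11-fold higher in MYH11 than in mDE (limma adjusted p = 8.74e-05). In mDE against WT the log2 fold change was 0.20, with a 95% interval of -0.08 to 0.48 (limma adjusted p = 0.403). The annotated Aim2 gene spans Cadm3 on the opposite strand, which read 373, 689 and 609 in MYH11, 12.1, 16.2 and 18.6 in mDE, and 22.2, 23.0 and 36.4 in WT. Their exons share 0 bases in GENCODE M21. Whether the counting used strand is not given in the sources used here, and the part of Cadm3 in the Aim2 values was not tested.

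Nlrc4 (chromosome 17, 74425438 to 74459142 on the minus strand), which joins NAIP proteins to detect flagellin and needle proteins of bacteria, read 577, 655 and 601 in MYH11, 216, 425 and 376 in mDE, and 497, 460 and 480 in WT. MYH11 lay above WT and mDE below it, with mDE replicate 1 well under the other two mDE libraries. Against WT neither passed, at a log2 fold change of 0.35 in MYH11 (95% interval -0.13 to 0.83, limma adjusted p = 0.184) and -0.55 in mDE (-1.03 to -0.07, limma adjusted p = 0.201). Without mDE replicate 1, which enters the shared estimate of spread, the MYH11 difference passed (limma adjusted p = 0.00791) and the mDE value was -0.26. MYH11 was 1.8-fold above mDE with a limma adjusted p of 0.00539. The log2 difference was 0.90 with an SE of 0.21, and 0.61 without that library (limma adjusted p = 0.00096).

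Pycard (chromosome 7, 127989708 to 127993867 on the minus strand), the gene of the adaptor ASC, read 3027, 2825 and 3044 in MYH11, 1829.9, 1757 and 2118 in mDE, and 1886, 1880.2 and 1971 in WT. MYH11 stood above both other genotypes, which overlapped. It was 1.55-fold higher in MYH11 than in WT (log2 fold change 0.63, SE 0.07, limma adjusted p = 6.48e-05). The mDE difference of -0.01 had a 95% interval of -0.18 to 0.15. Of the exonic bases of Pycard, 12.8% lie under Gm45205 on the opposite strand, a gene model whose reads were not analysed here.

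Casp1 (chromosome 9, 5298517 to 5307265), the inflammatory protease, read 1874, 2417 and 1992 in MYH11, 1486, 1489 and 1905 in mDE, and 1411, 1559.6 and 1656 in WT. MYH11 lay above WT and overlapped mDE. Casp1 was 1.36-fold higher in MYH11 than in WT (log2 fold change 0.44, SE 0.12, limma adjusted p = 0.0128). The difference between MYH11 and mDE, 0.37 on the log2 scale, passed (limma adjusted p = 0.0303) but was lost when only the groups compared were fitted (0.052) and without MYH11 replicate 2 (0.0994), mDE replicate 1 (0.0958) or mDE replicate 2 (0.0993).

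Casp4 (chromosome 9, 5308828 to 5336783), which encodes the mouse sensor of cytosolic lipopolysaccharide known as caspase-11, lies next to Casp1. It read 887, 1272 and 832 in MYH11, 1017, 1015 and 1182 in mDE, and 911, 1173 and 1231 in WT. All 3 genotypes overlapped, and neither fusion genotype passed against WT. The 95% intervals of the log2 fold change were -0.54 to 0.22 in MYH11 and -0.41 to 0.34 in mDE (limma adjusted p = 0.428 and 0.926).

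Gsdmd (chromosome 15, 75862327 to 75867408), the gene of the pore protein, was the only one of the 9 called lower. It read 2026, 2731 and 2042 in MYH11, 2876, 3110.2 and 3129 in mDE, and 2731, 3296 and 3329.8 in WT. The highest MYH11 library, replicate 2, came within 0.1 normalised reads of the lowest WT library, and the groups did not overlap. Gsdmd was 1.38-fold lower in MYH11 than in WT (limma adjusted p = 0.00809; log2 fold change -0.47, SE 0.12). It was 1.34-fold lower in MYH11 than in mDE (limma adjusted p = 0.0125, and 0.05 without MYH11 replicate 1). MYH11 replicate 2 was the highest MYH11 library for Casp1, Casp4, Gsdmd, Aim2, Nlrp1b, Nlrp3 and Nlrc4. Nlrp1a was highest in replicate 1, and Pycard was lowest in replicate 2. Replicate 2 also had the largest share of late neutrophil reads in that genotype (2.47%, against 1.46% and 0.804% in replicates 1 and 3). The part of that share in these values was not tested.

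**Figure D3:**
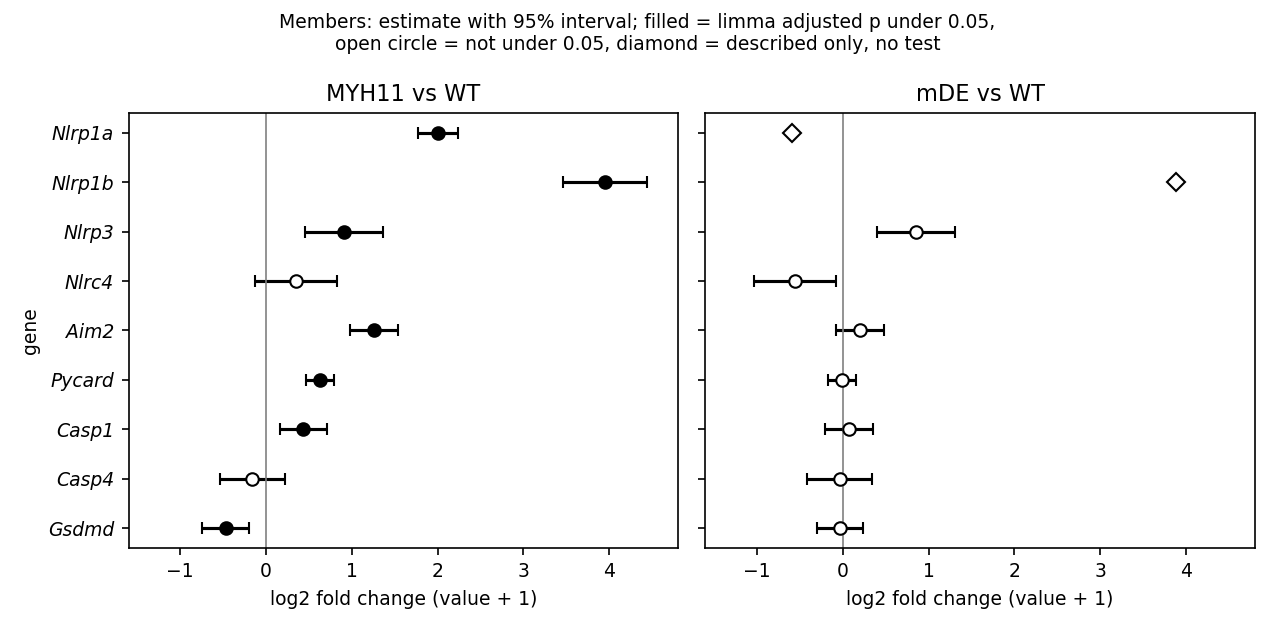
Log2 fold changes on the log2(value + 1) scale (x axis) with 95% intervals for each gene (y axis) in MYH11 vs WT and mDE vs WT. Filled circles have a limma adjusted p under 0.05 and open circles do not; diamonds are the Nlrp1 pair in mDE, described with no test. In mDE the interval of Nlrp3 runs from 0.40 to 1.30, and that of Pycard from -0.18 to 0.15.

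With the altered multimerization domain, limma called 0 of the 7 genes other than the Nlrp1 pair, where 1.24% of all genes passed, 0.821% higher and 0.42% lower. At an unadjusted p under 0.05 there were 2 of the 7, Nlrp3 higher and Nlrc4 lower, against 19.8% of all genes. On recovered reads, edgeR's quasi-likelihood test called 0 of the 7, against 1.18% of all genes. The DESeq2 Wald test called 1 of the 7, Nlrp3, which was higher, against 5.9% of all genes, 3.72% higher. It called 941 genes in all against 198 with limma. The libraries of mDE and WT did not overlap for 3 of the 7 (Nlrp3 and Aim2 higher, Nlrc4 lower), against 26.1% of all genes, 13.9% higher and 12.1% lower. For Casp1 and Gsdmd the log2 fold changes in mDE were 0.07 (95% interval -0.21 to 0.35, limma adjusted p = 0.783) and -0.03 (-0.31 to 0.24, limma adjusted p = 0.902). The median log2 fold change over the 7 genes was -0.01, and 0.01 over all genes tested.

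Between the fusion alleles, MYH11 against mDE, 5 of the 7 genes passed, 4 higher and 1 lower, where 55.6% of all genes passed, 29.6% higher and 26% lower. The 4 were Nlrc4, Aim2, Pycard (1.56-fold, limma adjusted p = 6.34e-05) and Casp1, and the lower was Gsdmd. The groups did not overlap for 4 of the 7, 3 higher and 1 lower, against 62.2% of all genes, 33.2% higher and 29% lower. Nlrp1a was 6.04-fold higher in MYH11 than in mDE, with no test. These comparisons share libraries with those against WT.

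Levels were compared between genes as normalised reads per kilobase of exon. In MYH11, Casp1 was highest at 1399 ± 191, followed by Gsdmd at 954 ± 169, Pycard at 780.3 ± 32.0 and Aim2 at 547 ± 102 (SD, n = 3 each). Casp4, Nlrp1a and Nlrp3 came next at 269 ± 64.6, 247 ± 4.62 and 211 ± 10.8, and of these only Casp4 and Nlrp1a overlapped. Nlrc4 followed at 127 ± 8.22, and Nlrp1b was lowest at 67.0 ± 9.28. In mDE, Gsdmd (1278 ± 59.3) and Casp1 (1087 ± 161) came first and overlapped. Pycard, Casp4 and Aim2 followed, of which the last pair overlapped, and then Nlrp3. Below Nlrp3 came Nlrc4 (70.6 ± 22.8), Nlrp1b (63.8 ± 2.15) and Nlrp1a (41.0 ± 4.97). Nlrc4, at 44.9, 88.5 and 78.3, overlapped Nlrp1b and also Nlrp1a, at 35.5, 45.1 and 42.3. In WT, Nlrp3 (117 ± 36.4) and Nlrc4 (99.7 ± 3.88) overlapped, and below them came Nlrp1a (61.5 ± 2.93) and Nlrp1b (4.33 ± 1.48), with no overlap. Nlrp1a therefore outranked Nlrp1b in MYH11 and WT but not in mDE, and no library broke that order. The order in mDE and WT restates values by which the pair was chosen and adds nothing to them.

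The locus around the pair was then read. Of 77 other listed genes that start within 1 Mb of the Nlrp1b start, 39 were tested. In MYH11 against WT, 24 of them passed, 11 higher and 13 lower (61.5%, close to the 59.8% of all genes). In mDE against WT, 1 passed, Mink1, a kinase gene at a distance of -668 kb, towards lower coordinates (log2 fold change 0.34, limma adjusted p = 0.0422), with 1193, 1315 and 1163 in mDE and 963, 1013 and 913 in WT. The nearest tested gene on the far side was Nlrp1c-ps, a transcribed pseudogene of the same family. It read 82.2, 147 and 88.6 in MYH11, 3.31, 8.99 and 4.38 in mDE, and 1.93, 2.88 and 2.35 in WT. Its log2 fold change was 4.94 in MYH11 (SE 0.37, limma adjusted p = 5.11e-06) and 0.87 in mDE (limma adjusted p = 0.239). The WT libraries held 7 reads of it in all, so the size of the MYH11 difference is uncertain.

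**Figure D4:**
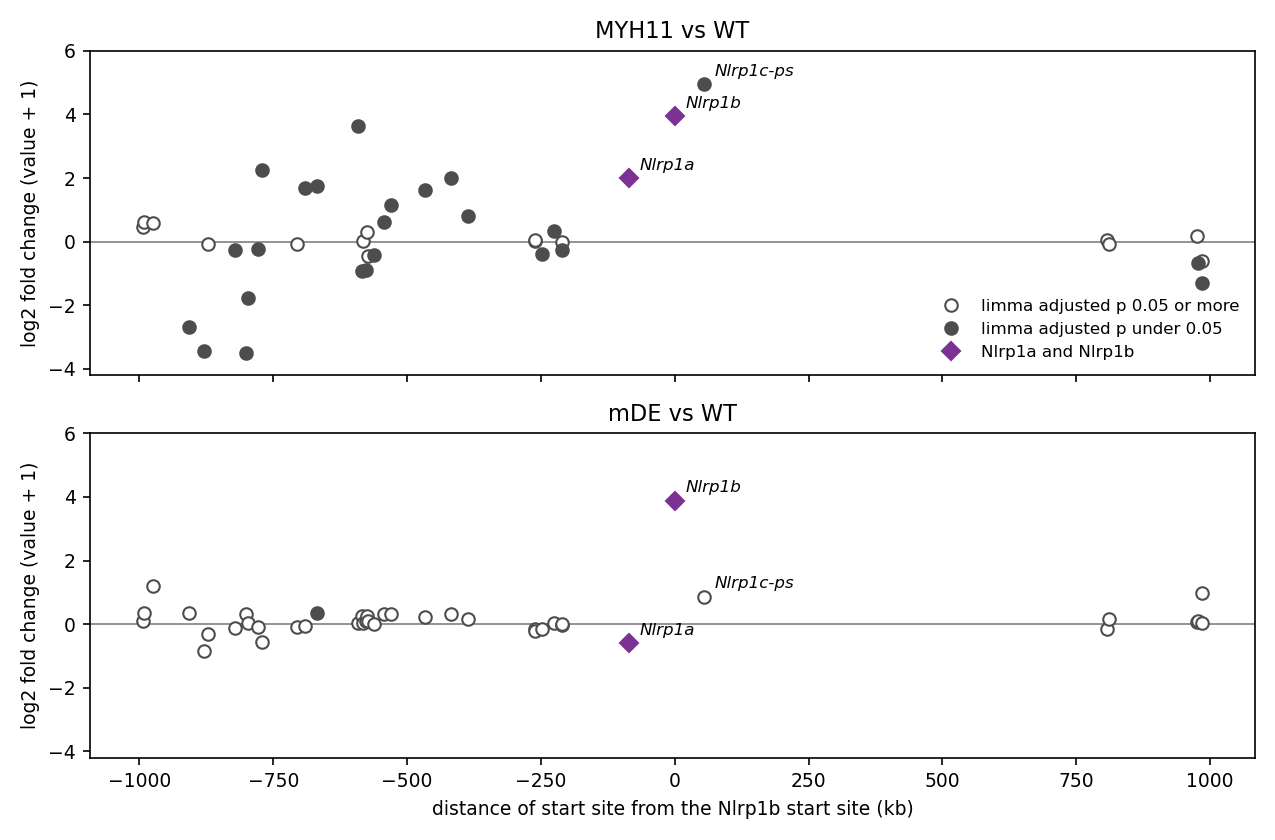
Log2 fold change on the log2(value + 1) scale (y axis) of tested genes against the distance of their start from that of Nlrp1b (x axis, kb), for MYH11 vs WT above and mDE vs WT below. Nlrp1b stands at 3.89 in mDE, the contrast by which it was chosen, and the median of its tested neighbours is 0.08. Its distance from them in mDE follows from that choice and is a description with no test. In MYH11 neighbours spread in both directions.

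Genes with a pattern over the 9 libraries most like that of each paralog were ranked by Pearson correlation of log2(value + 1) among 10721 genes, as a description in which the 3 genotypes set the correlation. The 5 nearest to Nlrp1b were Dlg4 (r = 0.98), Usp54 (0.97), Zfp467 (0.96), C1ra (0.96) and Siglech (0.95), the last also on the dendritic cell marker list, whose part was not tested. Dlg4 lies on the same chromosome, 1.21 Mb from Nlrp1b, and stood at 401 ± 11.3 in MYH11, 359 ± 27.2 in mDE and 209 ± 18.0 in WT (n = 3 each). The 5 nearest to Nlrp1a, with r from 0.992 to 0.993, were the mast cell protease gene Mcpt2, D330045A20Rik, Ryr1, Tlr11 and Bscl2, all on other chromosomes. Mcpt2 stood at 2245 ± 393 in MYH11, 0.600 ± 1.04 in mDE and 3.10 ± 0.368 in WT (n = 3 each).

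The wider pathway was read in 6 lists of 62 genes, of which 52 were tested. In MYH11 against WT, 34 of the 52 were higher and 8 lower, where 32% of all genes tested were called higher and 27.8% lower. Against mDE, 31 of the 52 were higher in MYH11 and 8 lower, where 29.6% of all genes were higher and 26% lower. In mDE against WT, limma called 0 of the 52, where 1.24% of all genes passed, with list medians from 0.10 to 0.45 on the log2 scale, against 0.01 over all genes. At an unadjusted p under 0.05 there were 10 of the 52 (19.2%), all higher in mDE, and 19.8% of all genes, 11.3% higher and 8.53% lower. The share in either direction lay at the background. On recovered reads edgeR's quasi-likelihood test called 0 of the 52, against 1.18% of all genes. The DESeq2 Wald test called 7 of the 52, all higher, against 5.9% of all genes, 3.72% higher. These were Ifi203, Ifi214, Mndal, Nlrc3, P2rx7, Trim30a and Txnip. The smallest limma adjusted p was that of Txnip, a binder of NLRP3 named after its values were seen, at 0.0527 (log2 fold change 0.47). Among other cytosolic sensors 8 of 12 were higher and 1 lower in MYH11, against 32% and 27.8% of all genes (median log2 fold change 0.92 in the list and 0.02 over all genes). They were led by Nlrp1c-ps, Nlrc3 (2.67-fold), Nlrp10 (5.28-fold) and Nlrc5 (3.18-fold), an activator of MHC class I genes (limma adjusted p from 5.11e-06 to 0.000188). The lower gene was Nlrx1, a mitochondrial family member, 1.64-fold (limma adjusted p = 0.000528, named after its values were seen). Nlrp12 was at 0 in all libraries, which allows up to 3 reads a library, or 2.56 to 3.52 normalised reads.

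AIM2-like receptors, interferon-inducible relatives of Aim2 on chromosome 1, were higher in MYH11 in 9 of 11 tested and lower in 0, against 32% and 27.8% of all genes (median log2 fold change 1.64 in the list and 0.02 over all genes). Ifi207, at 1660.2 ± 349 in MYH11 and 177 ± 40.9 in WT, was 9.37-fold higher, Ifi204 6.56-fold, Ifi211 5.91-fold and Ifi209 3.72-fold (n = 3 each, limma adjusted p from 2.63e-06 to 6.7e-06). Ifi202b, whose values are given above, did not pass the filter. Sequence shared among these related genes was not measured here, and single values are uncertain where reads could be divided between them.

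Genes that license or restrain the sensors were higher in MYH11 in 10 of 14 and lower in 2, against 32% and 27.8% of all genes (median log2 fold change 0.73 in the list and 0.02 over all genes). P2rx7, the ATP-gated channel upstream of NLRP3, read 3778, 3086 and 3604 in MYH11, 347, 390.3 and 445 in mDE, and 301, 279 and 250.2 in WT. MYH11 was 12.6-fold above WT (log2 fold change 3.65, SE 0.12, limma adjusted p = 9.75e-08). The mDE value missed the threshold (log2 fold change 0.51, limma adjusted p = 0.0724). Nek7, an NLRP3 partner, was 1.81-fold and the guanylate-binding protein gene Gbp7 3.43-fold higher in MYH11 (limma adjusted p = 6.79e-06 and 7.77e-06). Serpinb1a, an inhibitor of neutrophil proteases, was 5.11-fold lower in MYH11, at 6592 ± 1797 against 33681 ± 1795 in WT (n = 3 each, limma adjusted p = 3.39e-06), while late neutrophil markers took the smaller share of reads given above, whose part was not tested. The other lower gene was Brcc3, a deubiquitinase of NLRP3, 1.24-fold (limma adjusted p = 0.000578, named after its values were seen). Dpp8 and Dpp9, peptidases that hold NLRP1 inactive, stood at 1.07-fold (limma adjusted p = 0.156) and 1.10-fold higher (limma adjusted p = 0.0476), both named after their values were seen.

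Downstream, the lists went both ways in MYH11. Of 8 other caspases and death adaptors 4 were higher and 2 lower, against 32% and 27.8% of all genes. Casp12, a neighbour of Casp1 and Casp4 on chromosome 9, was 5.49-fold and the necroptosis kinase Ripk3 1.8-fold higher, while the death receptor adaptor Fadd was 1.41-fold lower (limma adjusted p from 7.18e-06 to 0.000226). Among cytokines, Il1b was 3.52-fold and Il1rn, the interleukin-1 receptor antagonist, 6.61-fold lower (limma adjusted p = 0.00724 and 3.05e-05), and Il18 and Il1a were 1.86-fold and 4.10-fold higher (limma adjusted p = 0.0115 and 0.000689). Il1b read 287, 312 and 178 in MYH11, 862, 1180.0 and 792 in mDE, and 385, 946 and 1405 in WT. Its WT libraries were widely spread, and none overlapped MYH11. Gsdme, another pore-forming gasdermin, was 2.57-fold lower and Ninj1, which ruptures the membrane after pore formation, 1.23-fold higher (limma adjusted p = 1.46e-05 and 0.0196), whereas Gsdmc, Gsdmc2 and Gsdmc3 were at 0 in all libraries.

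**Figure D5:**
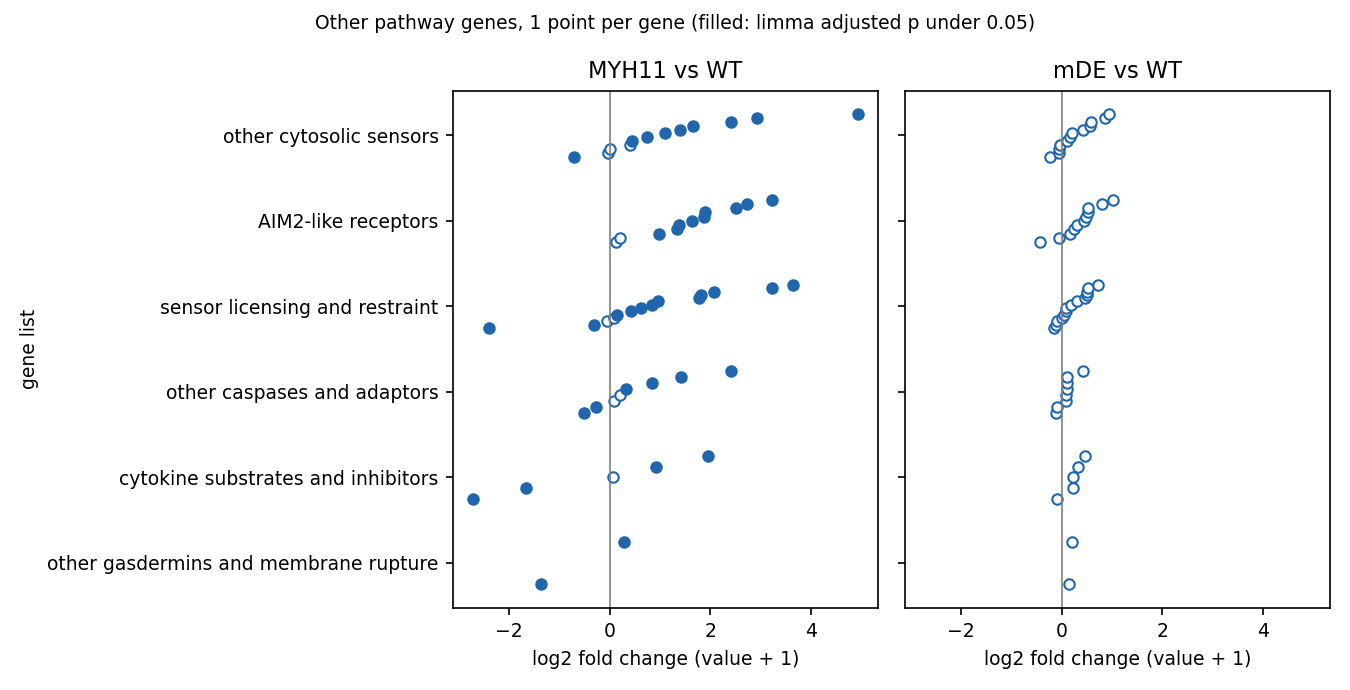
Log2 fold changes on the log2(value + 1) scale (x axis) of tested genes in 6 inflammasome pathway lists (y axis), 1 point per gene, in MYH11 vs WT and mDE vs WT. Filled points have a limma adjusted p under 0.05: 42 of 52 in MYH11, and 0 of 52 in mDE.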

How the data were processed

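RNA-seq was read from 1 deposited table of 43629 genes in 9 libraries. The deposited signal per gene and library is, by its values, a read count divided by 1 size factor per library by the authors. CASAVA 1.8.2, STAR 2.4, RSEM and DESeq2 on GRCm38 are named, per the submitters' processing notes, without roles. Whole reads were recovered for 100% of nonzero values (relative tolerance 1e-06). A gene at 0 allows up to 3 reads, counting error only. Symbols matched 97.3% of identifiers, with coordinates from GENCODE M21.

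Genes kept by filterByExpr (edgeR 4.0.16), 15948, were tested with limma-trend (limma 3.58.1, R 4.3.3) on log2(value + 1), genotype as the only term, two-sided, Benjamini-Hochberg over all genes, threshold 0.05. On simulated data, 68% to 73% of genes changed 2-fold and 95% to 100% changed 4-fold were recovered. Reads were also tested with edgeR's quasi-likelihood test and DESeq2 1.42.0. Sequences were aligned with mafft 7.526.

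Members and lists were chosen with earlier results of these data known. Named were all members, up to 4 called genes per list and comparison with the smallest adjusted p, the 5 genes most like each Nlrp1 paralog, and up to 4 called neighbours within 1 Mb. A gene that this rule names is not reported here. Beside counts of 0, unadjusted p-values and both count tests were read. Fold differences are ratios of group means.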

Additional observations from a re-analysis of the deposited data

How the results depend on the processing

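The log2 fold changes of the 9 genes in the 3 comparisons were recomputed under 20 alternatives each, 540 values in all. Of these, 522 kept their side of the threshold and their direction, or for the untested pair stayed within the replicate spread, 5 lost a call, 3 gained one and 10 changed sign, while none of the sign changes was of a called value. The 10 were all in mDE against WT with 1 library left out, where the log2 fold change ran from -0.0922 to 0.0422 for Pycard, -0.126 to 0.0172 for Gsdmd, -0.169 to 0.0483 for Casp4 and -0.0487 to 0.131 for Casp1. Nlrp1b in MYH11 against mDE, described with no test, ran from -0.05 to 0.12. The lost and gained calls stand in the report beside Casp1, Gsdmd, Nlrc4 and Nlrp3; Nlrc4 in MYH11 against WT was also called when only those groups were fitted (limma adjusted p = 0.00705).

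The number of genes called in mDE against WT, 198, moved to 123 with the stricter filter on low counts, 941 with the DESeq2 Wald test, 123 with only the groups compared and 101 with the replicate number as a block, and ranged from 32 (without WT replicate 2) to 262 (without MYH11 replicate 2) with 1 library left out; the cause was not tested. Of the 7 genes other than the Nlrp1 pair, DESeq2 called 1 there, against 5.9% of all genes. In MYH11 against WT, 7260 to 9879 genes and 7 to 8 members were called. The replicate block changed no other call of a member; same-numbered libraries correlated from -0.15 to 0.12 in their deviations from the group means, so the numbers were not taken as pairs. Scaling by TMM, upper quartile or recomputed size factors moved the median of all genes by at most 0.02 on the log2 scale. The summed Nlrp1 pair kept log2 ratios of 2.26 to 2.39. Depth limits Nlrp1b in WT, at 20 to 32 reads a library.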
